A study of Mus musculus with 4 samples.

Results

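Matrix genes were followed through single-cell RNA-Seq of whole kidneys: Col1a1, Col1a2, Col3a1, Dcn, Mgp, Fn1, Col4a1, Col4a3, Tgfb1 and Timp3. These 10 genes of 32285 listed were taken by symbol. Their unique molecular identifier counts (UMIs) were pooled by library and by the cell classes that hold them: fibroblast, mural cell, endothelium, podocyte and tubule. The genes were chosen by these measured pooled levels, known from earlier results on the same cells, so the levels are a description. The groups were male C3H mice, wild type (WT) or homozygous for the Sweet Pee mutation (SP), a missense change in Slc5a2, the gene of the glucose transporter SGLT2. From 10 weeks of age they ate normal diet (ND) or high-fat diet (HFD, 60% of calories from fat) for 8 weeks, and kidneys were taken at 18 weeks. The mutation was carried in every cell, and how many animals entered a library was not given in the sources used here. There was 1 library for each condition, and series of 4 values below follow the order WT-ND, WT-HFD, SP-ND, then SP-HFD. With 1 library per condition, differences between conditions had no replicate check and no test was made. Intervals below are exact 95% counting intervals (Poisson for levels, conditional binomial for ratios, Clopper-Pearson for shares). They cover counting error only, and neither animal, library nor dissociation.

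The extracellular matrix of the kidney has an interstitial part and a basement membrane part. Interstitial matrix, made chiefly by fibroblasts and cells of the vessel wall, holds fibrils of type I collagen (chains Col1a1 and Col1a2) and type III collagen (Col3a1), the fibril-binding proteoglycan decorin (Dcn), fibronectin (Fn1) and matrix Gla protein (Mgp), a vitamin K-dependent inhibitor of calcification. Type IV collagen forms basement membranes: Col4a1 pairs with Col4a2 in most of them, while Col4a3 joins Col4a4 and Col4a5 in the glomerular basement membrane, where podocytes supply it. Tgfb1 encodes a growth factor that raises matrix production in many cells, and Timp3 a metalloproteinase inhibitor that binds to the matrix.

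On the mouse build GRCm38.p6 (RefSeq annotation), Col1a1 lies on chromosome 11 (94936224 to 94953042), Col1a2 on chromosome 6 (4505618 to 4541543) and Col3a1 on chromosome 1 (45311538 to 45349706). Dcn (chromosome 10, 97479500 to 97518163) and Timp3 (chromosome 10, 86300412 to 86349505) share a chromosome, as do Mgp (chromosome 6, 136872435 to 136875823) and Col1a2. Fn1 (chromosome 1, 71585473 to 71653280) and Tgfb1 (chromosome 7, 25687002 to 25705077) complete the interstitial and signalling genes. The type IV collagen genes stand in head-to-head pairs whose annotated gene spans overlap at their starts: Col4a1 (chromosome 8, 11198423 to 11312889, minus strand) with Col4a2 (11312805 to 11449287, plus strand), and Col4a4 (chromosome 1, 82448419 to 82587034, minus strand) with Col4a3 (82586921 to 82722059, plus strand).

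RefSeq promoter windows matched 5 of the 10 genes. The sequence upstream of Col3a1 (chr1:45311288-45311537, plus strand, 250 bases ending at the base before the annotated start) is shown because Col3a1 was among the fibrillar collagens that marked the fibroblasts. Capitals mark a match to TATAAA.
Col3a1 upstream: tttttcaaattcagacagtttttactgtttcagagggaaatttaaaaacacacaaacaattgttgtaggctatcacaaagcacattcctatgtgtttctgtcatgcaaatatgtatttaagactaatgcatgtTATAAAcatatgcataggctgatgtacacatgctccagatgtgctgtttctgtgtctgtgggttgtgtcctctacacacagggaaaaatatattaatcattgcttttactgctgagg
The Col3a1 window held TATAAA 117 bases before the start and no CCAAT on either strand, and 35.2% of its bases were G or C, against a median of 52.4% in 32851 windows of the same length. TATAAA stood on either strand in 12.4% of those windows and CCAAT in 33.8%. No annotated exon overlapped the stretch, and these matches are a description of the letters.

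The 4 libraries held 90728590 to 115117649 UMIs in 13229 to 16385 barcodes, and 6389 to 9924 cells per library were kept after limits on genes, on mitochondrial UMIs and on a doublet score (32280 cells in all). Barcodes above the mitochondrial limit were 32.7%, 33.2%, 49.8% and 42.1%, more in both SP libraries. Any pair of libraries shared 54 to 77 barcode sequences, at most 0.52% of the smaller library. Cells were clustered again for the analysis here, with the matrix genes left out of the clustering, and a class name means cells like that type by markers. Clusters with at least 90% of their cells from 1 library stayed unnamed. They held 1282 WT-HFD cells, 14.3% of that library, against 10 to 41 cells of each other library, and WT-HFD is the library that stands apart. Clusters of this kind whose best or second-best markers were mural held 103, 46 and 44 WT-HFD cells, beside 198 named mural cells of WT-HFD. Mural values below leave them out unless stated. The largest cluster of this kind, led by Hsd11b1 and Ccl28, held 1089 WT-HFD cells. Its best markers were those of the proximal tubule, at a mean log2 ratio of only 0.22. Tubule values below leave it out, so they do not cover these WT-HFD cells. Slc5a2 was at 161, 101, 22.2 and 23.3 CPM (UMIs per 1000000 UMIs of the pooled cells) in all kept cells, and this level does not check a missense label.

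Fibroblasts were few: 4, 7, 14 and 7 cells, 32 in all. Mural cells numbered 1026, endothelial cells 3238, podocytes 1465 and tubule cells 14285. The fibroblast label was given from 10 markers that did not include the 10 matrix genes followed here. These markers named the cluster over all libraries, so they describe the label and are no independent check of it. Their summed level was 3518, 18329, 6729 and 2107 CPM. Dpt, Scara5 and Clec3b, markers of adventitial and interstitial fibroblasts, were at 0 in WT-ND and SP-HFD (3 UMIs, the limit that a count of 0 allows, would be 192 and 84.3 CPM there), and Lum was also at 0 in WT-ND. Summed mural markers in these cells were 960, 654, 2271 and 2135 CPM, with 7, 6, 2 and 5 of 12 listed at 0. Summed proximal tubule markers were 2175, 567, 402 and 309 CPM, with 3, 4, 3 and 7 of 12 at 0. The cells called fibroblasts thus differed between libraries in their own markers, with WT-HFD highest for fibroblast markers and lowest for mural markers. Mitochondrial UMIs made up 19.4%, 7.72%, 11.4% and 14.2% of their UMIs. The part of this mix in any fibroblast value below was not tested.

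Over the 4 libraries, each matrix gene had its own order of classes. In fibroblasts the pooled levels were 44477 CPM for Mgp, 6963 for Dcn, 4128 for Col3a1, 3171 for Col1a2 and 2327 for Col1a1, followed by Timp3 (1181), Col4a1 (951), Fn1 (650), Tgfb1 (124) and Col4a3 (82.7). In mural cells Mgp led with 1490 CPM, then Timp3 with 749, Col4a1 with 517 and Fn1 with 154. UMIs come from the 3′ ends of transcripts, so these levels are per transcript counted and were not divided by gene length. Endothelium had Timp3 at 2684 CPM, Mgp at 723 and Col4a1 at 375. Podocytes had Timp3 at 2060 CPM and Col4a3 at 1293, and tubule cells Timp3 at 828, Col4a3 at 94.6 and Col4a1 at 40.5. The interstitial genes were thus highest in fibroblasts, Timp3 in endothelium and podocytes, and Col4a3 in podocytes.

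**Figure D1:**
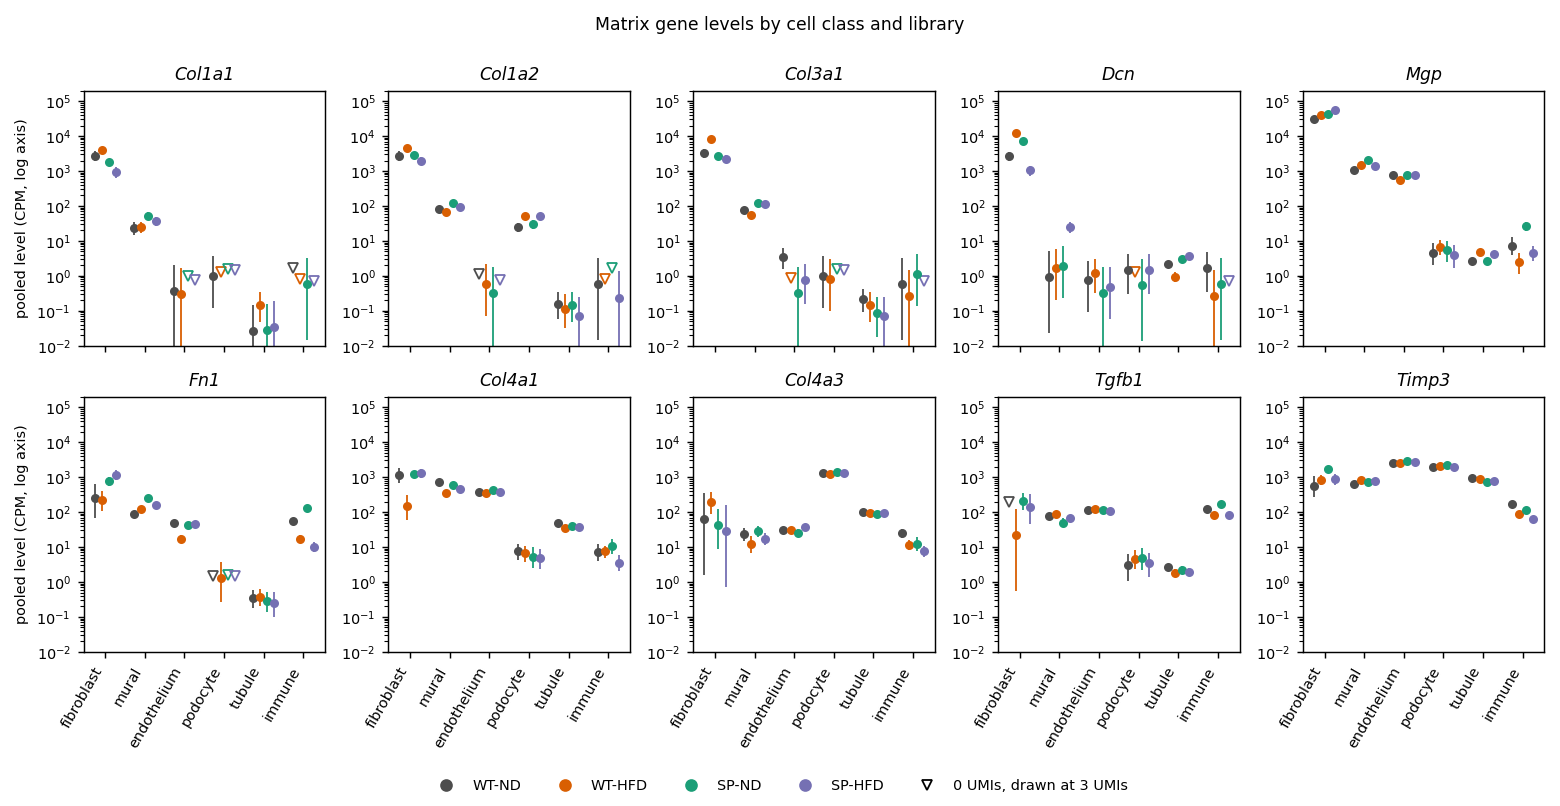
Pooled level of each matrix gene (CPM, log axis) by cell class, 1 point per library with its 95% counting interval; open triangles stand for 0 UMIs and are drawn at 3 UMIs. Fibroblast Mgp sits between 31154 and 57152 CPM in the 4 libraries, above every other class in each library.

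The share of a gene's UMIs that a class contributed depended on the number of cells as well as on the level. In whole-kidney material, fewer cells of a type and less RNA per cell cannot be told apart in such shares. The 32 fibroblasts held 61.9% (58.0 to 65.6) of all Col1a1 UMIs in kept cells, 53.4% of Col3a1 and 70.4% (68.1 to 72.6) of Dcn. Mural cells held a further 25.0% of Col1a1 and 32.8% of Col3a1. These shares differed between libraries: fibroblasts held 26.1%, 88.3%, 82.2% and 16.4% of Dcn, and tubule cells 53.5%, 5.16%, 16.1% and 47.8%. For Col3a1 the fibroblast shares were 29.6%, 72.4%, 55.4% and 30.0%, and mural cells held 49.1% in WT-ND, 35.2% in SP-ND, 56.7% in SP-HFD and 66 of 508 UMIs in WT-HFD. In WT-ND and SP-HFD, tubule cells therefore held more Dcn, and mural cells more Col3a1, than fibroblasts did. Most of this tubule Dcn lay in intercalated cells led by Slc26a4, with 70 of 84 UMIs in WT-ND and 93 of 108 in SP-HFD. The proximal tubule held 4 and 0 UMIs there. In SP-HFD most of the Dcn UMIs of these intercalated cells lay in a single cell, as given at the end. Mgp was split between endothelium (35.1%), fibroblasts (27.9%) and mural cells (26.0%). Fn1 came from mural cells (36.1%), endothelium (24.8%) and immune cells (21.1%) over the 4 libraries. In WT-HFD, though, unnamed cells held the most Fn1, 182 of 475 UMIs (38.3%), against 30.7% in mural cells. Of these, 87 lay in the cluster led by Hsd11b1 and Ccl28. A further 43 lay in 1 cell, of the cluster led by Sfrp2 and Itga8. Without that cell, mural cells, with 146 UMIs, would have held more than unnamed cells. The basement membrane genes had other sources: tubule cells held 35.7% of Col4a1 and 48.2% of Col4a3, endothelium 31.8% of Col4a1, and podocytes 40.4% (39.8 to 41.0) of Col4a3. Tubule cells, which were the most numerous, also held 57.8% of Timp3, while Tgfb1 came from endothelium (40.0%) and immune cells (31.3%).

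**Figure D2:**
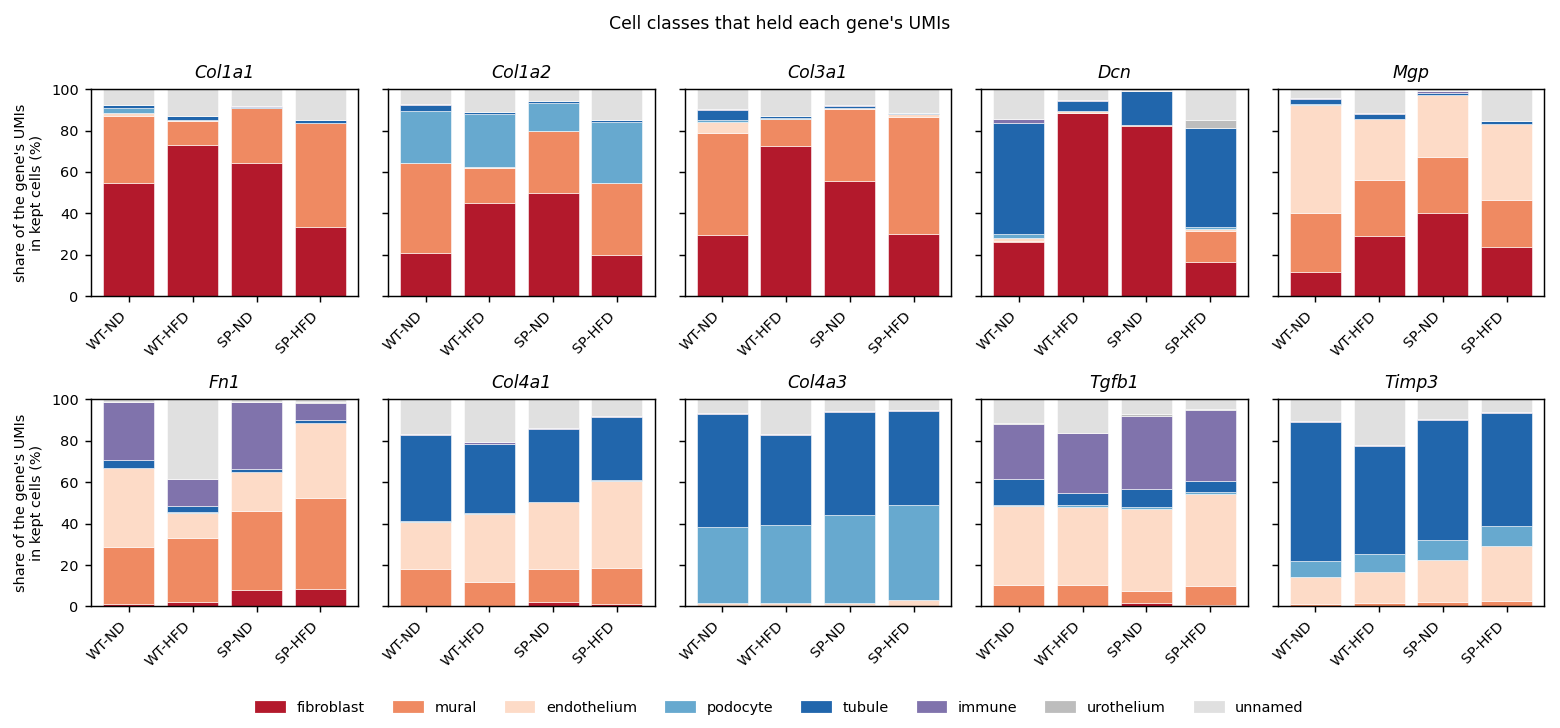
Share of each gene's UMIs in kept cells (%) that each cell class held, 1 stacked bar per library. The fibroblast share of Col1a1 was 54.5%, 72.9%, 64.6% and 33.3% from left to right, and the mural share 32.5%, 11.8%, 26.2% and 50.5%.

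The share of cells with a UMI was compared after every cell was thinned to 1000 UMIs. T or NK cells, which should lack these structural matrix genes, served as background (681 thinned cells, 115 shallower ones left out, median depth 2258.5 UMIs before thinning). Mgp was found in 96.9% (83.8 to 99.9) of thinned fibroblasts, 39.0% of mural cells and 6.85% of endothelial cells. Background was 0.294% (0.0356 to 1.06). Without thinning these shares were 100%, 57.0%, 9.48% and 0.628%, at median depths of 5782.5, 3863 and 2908 UMIs in the first 3 classes. Mgp in mural and endothelial cells was therefore above what the background cells held. Podocytes (0.817%) and tubule cells (0.524%) had thinned Mgp shares whose intervals (0.408 to 1.46 and 0.411 to 0.657) overlapped that of the background, and were read as background. Col4a3 was in 64.3% of thinned podocytes, 8.76% of tubule cells and 2.06% of the background cells (83.5%, 46.9% and 3.89% unthinned, with median depths of 5111 and 7984 UMIs in podocytes and tubule cells). Timp3 was in 78.8% of podocytes, 77.2% of endothelial cells, 41.0% of tubule cells and 12.6% of the background cells after thinning (89.8%, 92.4%, 83.5% and 22.4% before it).

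Type I collagen was followed first. In fibroblasts Col1a1 (ENSMUSG00000001506) had 42, 186, 133 and 33 UMIs, or 2687 (1936 to 3632), 4054 (3492 to 4680), 1842 (1542 to 2182) and 927 (638 to 1302) CPM. WT-HFD was highest and SP-HFD lowest. The log2 ratio for the diet (HFD over ND) was 0.59 (0.10 to 1.11) in the WT pair and −0.99 (−1.59 to −0.43) in the SP pair, and that of SP-HFD over WT-HFD was −2.13 (−2.71 to −1.59). Single fibroblasts of most libraries overlapped, except that the 4 WT-ND cells lay above the 7 SP-HFD cells: their medians were 2277 (range 2098 to 4608), 2714 (1330 to 6816), 1160 (0 to 8599) and 101 (0 to 2081) CPM. In SP-HFD 1 cell held 51.5% of the UMIs. Col1a2 (ENSMUSG00000029661), the partner chain, had 2687, 4708, 2880 and 1995 CPM in the same order, with log2 ratios of 0.81 (0.33 to 1.32) for the diet in WT, −0.53 (−0.94 to −0.13) in SP and −1.24 (−1.65 to −0.85) for SP-HFD over WT-HFD. It was detected in 32 of 32 fibroblasts, and Col1a1 in 28.

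These fibroblast values rested on which barcodes were kept. The doublet score left out 71.8% of the Col1a1 UMIs of WT-ND (206 of 287), against 3.38% to 21.5% in the other libraries. Of those 206 UMIs, 202 lay in 5 barcodes that held Col1a1, Col3a1 and at least 3 fibroblast markers. Kept barcodes of that kind numbered 5, 8, 12 and 5. With left-out barcodes given the class of the cluster they correlated with best, WT-ND had 7 fibroblasts in place of 4, and the Col1a1 diet ratio in WT went from 0.59 to −0.22, that of Col1a2 from 0.81 to 0.12. The direction of the WT diet difference in Col1a1 thus depended on the doublet step, while Col1a2 kept its direction at a smaller size. The lower level in SP-HFD than in WT-HFD stayed at −1.90 for Col1a1 and −1.08 for Col1a2. Over all barcodes of a library, with no class or filter, Col1a1 had 287, 331, 237 and 126 UMIs and log2 ratios of −0.10 (diet in WT), −0.61 (diet in SP), −0.54 (SP-ND over WT-ND) and −1.05 (SP-HFD over WT-HFD). Col1a2 had 422, 638, 512 and 416 UMIs there, and its diet ratio in WT was 0.29 (0.11 to 0.47).

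**Figure D3:**
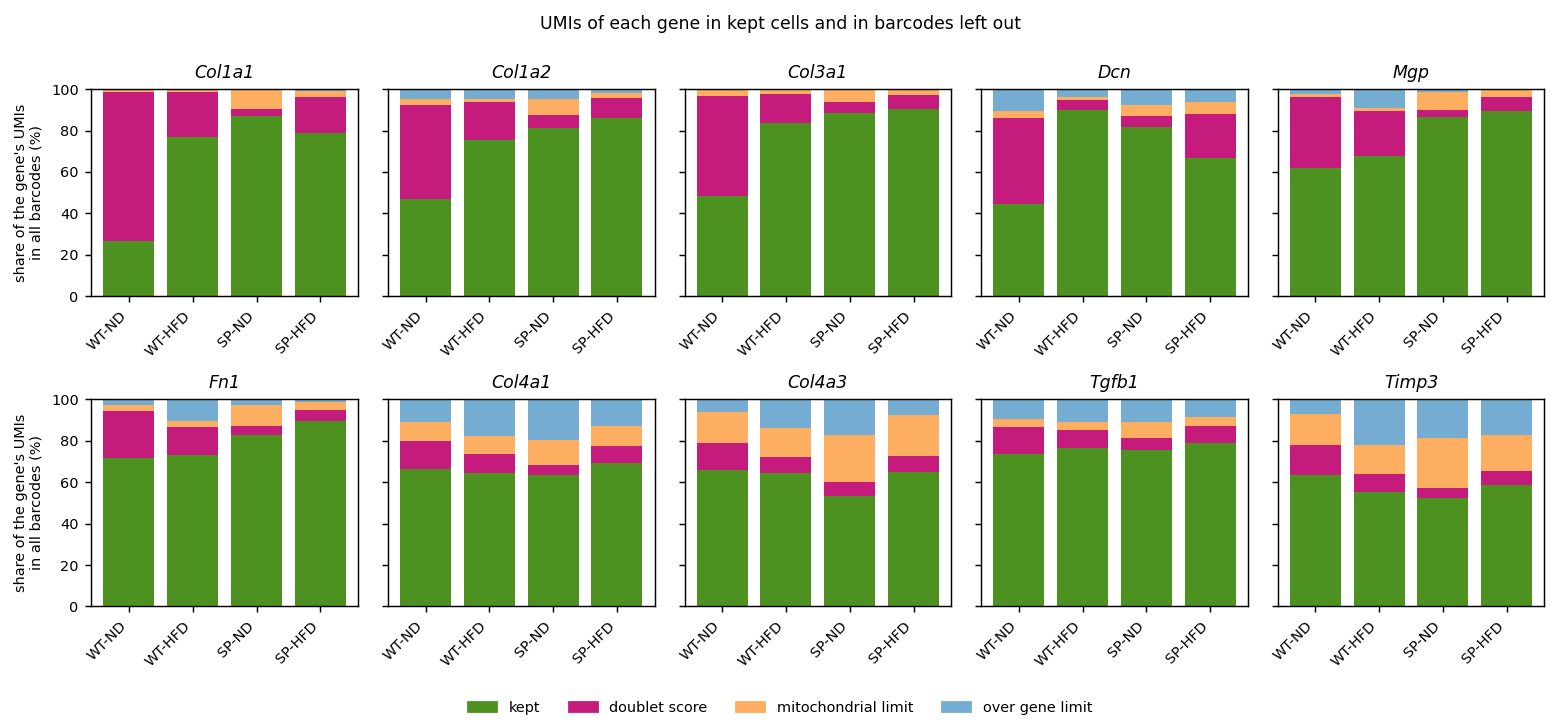
Share of each gene's UMIs in all barcodes (%) that lay in kept cells, or in barcodes left out by the doublet score, the mitochondrial limit or the gene limit, 1 stacked bar per library. The doublet share of Col1a1 in WT-ND, 71.8%, is far above those of the other libraries (3.38% to 21.5%).

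Type III collagen and decorin differed more. Col3a1 (ENSMUSG00000026043) in fibroblasts was at 3199 (2374 to 4217), 8020 (7222 to 8883), 2769 (2399 to 3181) and 2276 (1807 to 2829) CPM, and Dcn (ENSMUSG00000019929) at 2623 (1882 to 3558), 12314 (11319 to 13372), 7422 (6807 to 8078) and 1040 (732 to 1433) CPM. In these pooled levels WT-HFD was highest for both genes and SP-HFD lowest. For Dcn the diet log2 ratio was 2.23 (1.77 to 2.73) in the WT pair and −2.84 (−3.36 to −2.35) in the SP pair, and with the left-out barcodes added back 1.97 and −2.86. Col3a1 had 1.33 (0.90 to 1.78) in WT and −0.28 (−0.67 to 0.10) in SP, and the added-back value in WT was 1.10. SP-HFD over WT-HFD was −3.57 (−4.09 to −3.09) for Dcn and −1.82 (−2.18 to −1.47) for Col3a1. In single fibroblasts the median Dcn level was 2011, 12666, 4810 and 907 CPM. The WT-HFD cells ran from 3977 to 24410 CPM, and the highest SP-HFD cell, at 8738, lay inside that range. For Col3a1 the medians were 3149, 4656, 976 and 2122 CPM, so SP-ND and not SP-HFD was lowest. In SP-ND 1 of 14 cells held 55.5% of the Col3a1 UMIs. The pooled levels of these 2 genes were also higher where the summed fibroblast markers were higher (WT-HFD) and lowest where those were lowest (SP-HFD). The part of the markers was not tested.

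**Figure D4:**
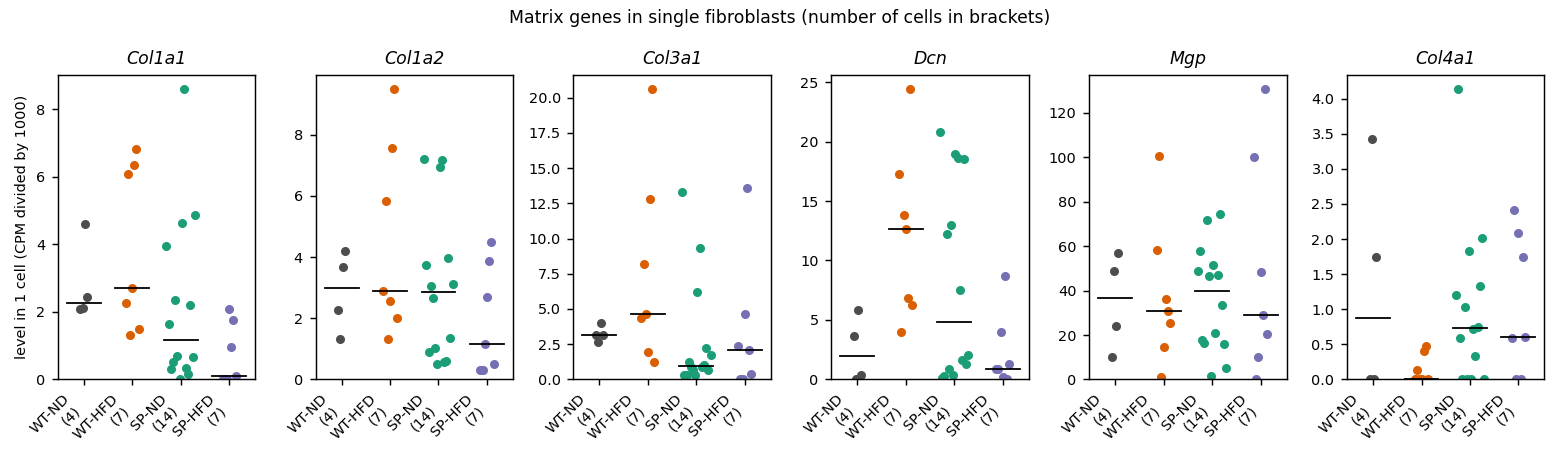
Level of 6 matrix genes in each single fibroblast (CPM divided by 1000), 1 point per cell and a black line at the median, with the number of cells per library in brackets. Cells of the libraries overlap, except for Col1a1 in WT-ND (2098 to 4608 CPM) and SP-HFD (0 to 2081), and the WT-HFD medians of Col3a1 (4656 CPM) and Dcn (12666 CPM) are the highest of the 4.

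Mgp (ENSMUSG00000030218) was the most abundant matrix transcript of fibroblasts, with 487, 1892, 3118 and 2034 UMIs, or 31154 (28448 to 34048), 41235 (39398 to 43136), 43174 (41671 to 44716) and 57152 (54696 to 59692) CPM. WT-ND was lowest and SP-HFD highest, and the 4 log2 ratios lay between 0.40 and 0.47, below the 2-fold limit. With left-out barcodes added back they were −0.059 (diet in WT), 0.41 (diet in SP), −0.43 (SP-ND over WT-ND) and 0.04 (SP-HFD over WT-HFD), so the diet ratio in SP stayed, the 2 ratios against WT-ND turned and that of SP-HFD over WT-HFD was near 0. Single cells spread far more than libraries did, from 302 to 130679 CPM with a median of 32231, and in SP-HFD 1 of 7 cells held 51.5% of the UMIs. The single-cell medians were 36602, 30908, 39955 and 29126 CPM, so the library with the highest pooled level had the lowest median.

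Outside fibroblasts Mgp was found in vessel-associated cells. Mural cells had 1082 (1020 to 1146), 1456 (1389 to 1525), 2018 (1933 to 2107) and 1438 (1376 to 1503) CPM. SP-ND was highest, 0.90 (0.80 to 1.00) above WT-ND on the log2 scale, and the diet ratio was 0.43 in WT and −0.49 in SP. Within the mural group led by Ren1 and Cnn1, genes of renin cells and of contractile smooth muscle, Mgp was at 2294, 3384, 3365 and 3599 CPM, with log2 ratios of 0.56 (diet in WT), 0.10 (diet in SP), 0.55 (SP-ND over WT-ND) and 0.09 (SP-HFD over WT-HFD). The lower SP-HFD value of mural cells as a whole was therefore not seen inside that group. That group made up 92 of 227 mural cells in SP-ND and 72 of 287 in SP-HFD. In the groups led by Cox4i2 and Ephx3 and by Ptn and Sfrp2, the pooled Mgp level over libraries was 1162 and 237 CPM, against 3175 in the Ren1, Cnn1 group. In WT-HFD 388 of the 1775 mural Mgp UMIs (21.9%) lay in 1 cell, and the diet ratio in WT was −0.26 once the mural clusters made up mostly of 1 library were counted. Over all barcodes, the doublet score left out 34.1% of Mgp UMIs in WT-ND and 21.9% in WT-HFD. It left out 3.57% in SP-ND and 6.47% in SP-HFD, and the mural ratios with those barcodes added back are not given here.

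In endothelium Mgp was highest in the arterial cells, at 2044 CPM over the libraries, against 13.9 in glomerular endothelium and 29.0 in the cells led by Esm1 and Plvap. Endothelial levels were 794 (761 to 829), 562 (537 to 588), 761 (730 to 792) and 780 (753 to 808) CPM. WT-HFD was lowest, by −0.50 (−0.59 to −0.41) against WT-ND, while the SP libraries differed by 0.04 (−0.04 to 0.12). The gene was concentrated in few cells: 63, 85, 65 and 94 endothelial cells held any UMI.

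Fibronectin, Fn1 (ENSMUSG00000026193), had low counts in fibroblasts (4, 10, 55 and 41 UMIs), or 256 (69.7 to 655), 218 (105 to 401), 762 (574 to 991) and 1152 (827 to 1563) CPM. Both SP libraries were above both WT libraries, and the log2 ratio of SP-ND over WT-ND was 1.57 (0.14 to 3.50) and that of SP-HFD over WT-HFD 2.40 (1.38 to 3.56). Adding back the left-out barcodes turned the first to −0.99 and left the second at 1.28. In mural cells Fn1 was at 87.7 (70.9 to 107), 120 (101 to 141), 257 (227 to 290) and 159 (139 to 182) CPM. SP-ND was highest, 1.55 (1.21 to 1.91) above WT-ND, and the diet ratio was 0.45 (0.07 to 0.84) in the WT pair and −0.69 (−0.95 to −0.43) in the SP pair. The first of these ratios turned to −0.12 when cells with 3 or more markers of another class were left out. Over all barcodes, the doublet score left out 22.7% of Fn1 UMIs in WT-ND and 4.15% in SP-ND. With left-out barcodes added back, the mural diet ratios were 0.33 in WT and −0.76 in SP. In the Ren1, Cnn1 group, where Fn1 was highest, levels were 242, 394, 552 and 533 CPM, so the diet ratio was 0.70 in WT and −0.05 in SP. The UMIs came from 21, 19, 40 and 33 mural cells, and the top 5 cells held 64.9%, 63.7%, 50.2% and 45.7% of them.

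Endothelial Fn1 was at 47.8 (39.9 to 56.9), 17.2 (13.1 to 22.3), 44.1 (37.0 to 52.3) and 44.2 (38.0 to 51.2) CPM. WT-HFD stood below the other 3 libraries, at −1.47 (−1.95 to −1.01) against WT-ND, and SP-HFD over WT-HFD was 1.36 (0.92 to 1.81). In arterial endothelium, which held nearly all of these UMIs, levels were 136, 52.9, 115 and 121 CPM. When 2 times as many barcodes were removed as doublets, both ratios reversed, to 0.55 and −0.48. The top 5 cells held 39.7% to 55.9% of the UMIs. Macrophages or dendritic cells had 100, 36.7, 188 and 23.6 CPM of Fn1, higher on ND than on HFD in both genotypes.

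The basement membrane collagen Col4a1 (ENSMUSG00000031502) was spread over stromal, endothelial and tubule cells. In mural cells it was at 717 (667 to 769), 348 (315 to 382), 603 (557 to 652) and 445 (411 to 482) CPM. Both HFD libraries were below their ND libraries, with log2 ratios of −1.04 (−1.22 to −0.87) in WT and −0.44 (−0.60 to −0.27) in SP. The group led by Ptn and Sfrp2 showed this most, with 1134, 320, 774 and 464 CPM and ratios of −1.83 (−2.09 to −1.57) and −0.74, while the Ren1, Cnn1 group had 582, 465, 679 and 504 CPM. These levels did not count the unnamed clusters of mostly WT-HFD cells. Of those, 2 led by Gm26771 and Sfrp2 held 103 and 44 WT-HFD cells, against 78 in the counted group led by Ptn and Sfrp2. When cells with 3 or more markers of another class were left out, the mural WT ratio of Col4a1 turned to 0.43. Col4a2, the chain encoded head to head with it, had the same order of libraries in mural cells (576, 311, 426 and 343 CPM). In fibroblasts Col4a1 had 18, 7, 89 and 47 UMIs, or 1151, 153, 1232 and 1321 CPM, and Col4a2 832, 87.2, 720 and 703 CPM. WT-HFD was low for both chains, by −2.92 (−4.42 to −1.59) for Col4a1 against WT-ND and with SP-HFD over WT-HFD at 3.11 (1.96 to 4.50), the opposite of the fibrillar collagens. WT-HFD fibroblasts also had the lowest mural marker sum, 654 CPM, and its part in this value was not tested.

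In endothelium Col4a1 was steady, at 372, 346, 421 and 368 CPM, with log2 ratios between −0.20 and 0.18. The cells led by Esm1 and Plvap had the most, 587, 584, 603 and 605 CPM, and glomerular endothelium had 369, 275, 367 and 264. Tubule cells had 48.4 (46.2 to 50.6), 34.4 (32.5 to 36.4), 40.3 (38.2 to 42.4) and 37.9 (35.7 to 40.3) CPM, and WT-HFD over WT-ND was −0.49 (−0.60 to −0.38). Thinned to 1000 UMIs, Col4a1 was in 35.1% of mural cells, 28.4% of endothelial cells and 0.587% of the background T or NK cells (71.1%, 61.9% and 1.26% before thinning).

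Col4a3 (ENSMUSG00000079465) differed little between libraries. Podocytes had 1326 (1276 to 1377), 1193 (1150 to 1238), 1369 (1317 to 1423) and 1308 (1260 to 1359) CPM. The largest of the 4 log2 ratios in size was −0.15 (−0.23 to −0.07), for the diet in WT. Its partner chains in podocytes were Col4a4 at 968, 811, 1019 and 897 CPM and Col4a5 at 176, 164, 246 and 193 CPM, with WT-HFD lowest for all 3 chains. Tubule cells had Col4a3 at 103, 94.9, 87.0 and 92.2 CPM and Col4a4 at 201, 169, 211 and 194. In podocytes Col4a3 was thus above Col4a4, and in tubule cells below it. Among tubule segments the thin limb had the highest Col4a3, 153, 237, 167 and 192 CPM, and the proximal tubule had 122, 107, 98.2 and 136.

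Podocytes also carried a low level of Col1a2 with hardly any Col1a1 (0.2 CPM over the libraries). Col1a2 had 50, 123, 56 and 105 UMIs there, or 24.9 (18.5 to 32.8), 51.6 (42.9 to 61.6), 29.9 (22.6 to 38.8) and 50.8 (41.5 to 61.5) CPM. Both HFD libraries were above both ND libraries, at 1.05 (0.57 to 1.56) in WT and 0.76 (0.28 to 1.26) in SP on the log2 scale, and the genotypes differed by 0.27 (−0.31 to 0.85) on ND and −0.02 (−0.41 to 0.36) on HFD. The UMIs were spread over 43, 70, 38 and 66 cells. After thinning, Col1a2 was in 3.12% (2.26 to 4.19) of 1347 podocytes and in 0% (0 to 0.54) of T or NK cells (14.8% of podocytes before thinning). A type I chain was thus detected in podocytes without its partner chain, and podocytes held 23.0% of all Col1a2 UMIs in kept cells.

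Tgfb1 (ENSMUSG00000002603) was read mainly from endothelium, at 114 (101 to 127), 121 (109 to 133), 114 (102 to 127) and 110 (99.9 to 121) CPM, with log2 ratios between −0.13 and 0.09. These 4 levels had overlapping intervals. Macrophages or dendritic cells had 179, 146, 211 and 156 CPM. Mural cells had 75.6, 88.6, 50.1 and 67.7 CPM, with SP-ND lowest, by −0.59 (−1.12 to −0.07) against WT-ND. Fibroblasts had 0, 1, 15 and 5 UMIs. T or NK cells make Tgfb1 themselves, so they give no background for it, and its thinned share was 10.7% in endothelium and 6.17% in those cells.

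Timp3 (ENSMUSG00000020044) had the most UMIs, 70259 to 104851 per library over all barcodes. Arterial endothelium had 4053, 3416, 4047 and 3996 CPM, the thin limb 3579, 3434, 2707 and 4084 CPM, and podocytes 1997, 2084, 2194 and 1971 CPM. The thin limb thus stood beside arterial endothelium, with SP-ND lowest there. Tubule cells as a class had 934, 868, 711 and 778 CPM, and SP-ND over WT-ND was −0.39 (−0.42 to −0.37). The proximal tubule by itself had 1337, 1294, 1295 and 1269 CPM, so this segment differed less between libraries than the pooled class did. Mural Timp3 was 625, 808, 744 and 796 CPM, with WT-ND lowest.

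**Figure D5:**
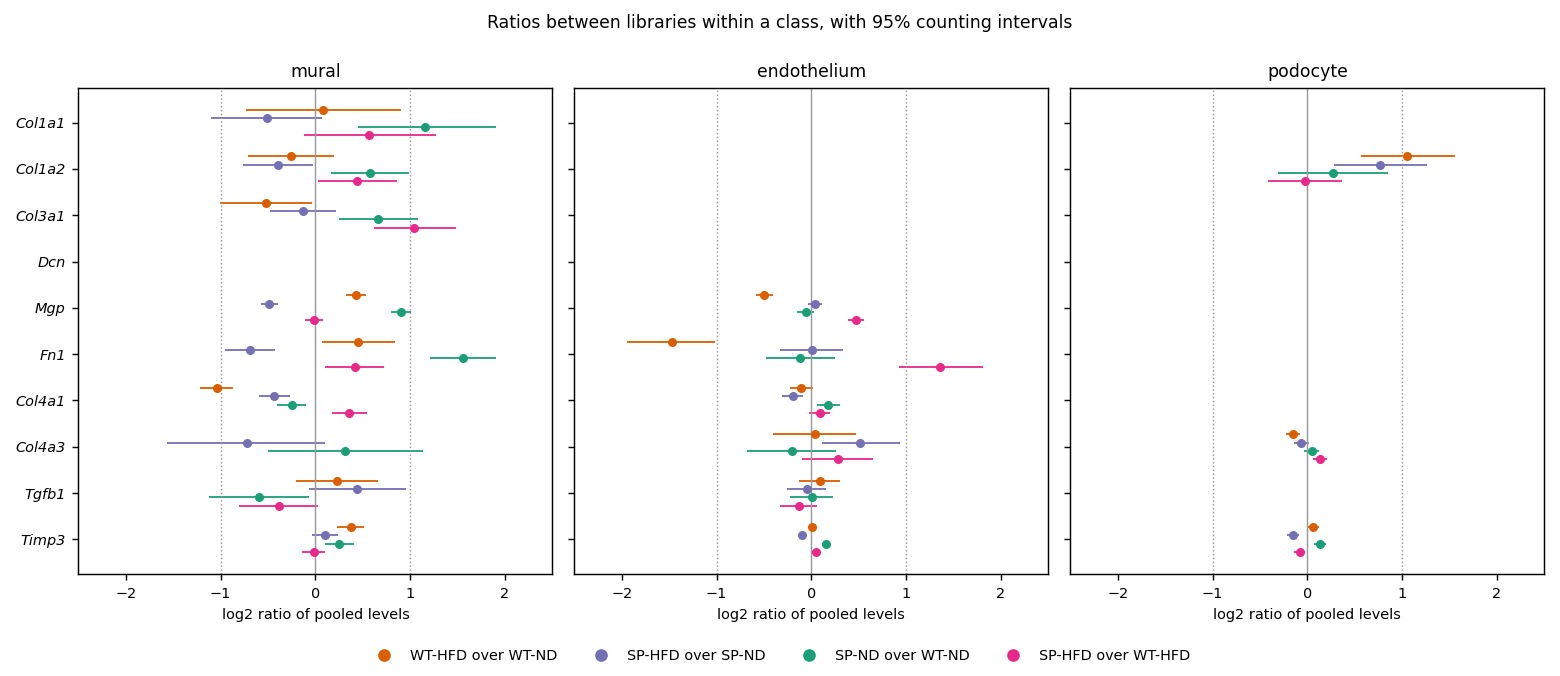
Log2 ratio of pooled levels between libraries for each matrix gene that passed the level filter, in mural cells, endothelium and podocytes, with 95% counting intervals and dotted lines at 2-fold. Most points lie between the dotted lines; mural Fn1 in SP-ND over WT-ND (1.55) and endothelial Fn1 in WT-HFD over WT-ND (−1.47) lie outside them.

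The matrix genes were then read against all genes of the same class. A gene entered a comparison when its pooled level was at least 20 CPM with at least 20 UMIs over the 2 libraries, and counted as different at 2-fold or more in either direction. The comparisons share libraries, so they are not independent of each other. In fibroblasts 3 of the 7 matrix genes tested were past 2-fold for the diet in WT, with 2 higher (Col3a1, Dcn) and 1 lower (Col4a1), against 38.3% of 381 genes. For the diet in SP 1 of 9 was lower (Dcn), against 19.3% of 705 genes. SP-ND over WT-ND had 3 of 8 higher (Dcn, Fn1, Timp3), against 28.8% of 559 genes. SP-HFD over WT-HFD had 2 of 8 higher (Col4a1, Fn1) and 4 lower (Col1a1, Col1a2, Col3a1, Dcn), against 37.7% of 522 genes. The fibroblast background was high, and these counts come from the values that chose the genes. Their median log2 ratios were 0.59, −0.53, 0.29 and −0.58, beside 0.45, −0.15, 0.18 and −0.39 over all genes tested.

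In mural cells 1 of 8 matrix genes was past 2-fold for the diet in WT (Col4a1 lower), against 3.14% of 6245 genes, and 0 of 9 for the diet in SP, against 4.61% of 6154 genes. SP-ND over WT-ND had 2 of 9 higher (Col1a1 and Fn1), against 4.64% of 6142 genes. SP-HFD over WT-HFD had 1 of 8 higher (Col3a1), against 0.722% of 6235 genes. Their medians were 0.15, −0.44, 0.57 and 0.39, beside 0.09, 0.07, −0.01 and −0.03 over all genes. Mural Col1a1 was at 23.3, 24.6, 52.0 and 36.4 CPM and Col3a1 at 77.5, 54.1, 122 and 111 CPM. Both SP libraries were above both WT libraries for these 2 collagens, and Col1a2 followed with 80.3, 67.3, 119 and 91.0 CPM, though the interval of SP-HFD over WT-HFD held 0 for Col1a1 (0.56, −0.12 to 1.27). This is the reverse of the fibroblasts, where SP-HFD was below WT-HFD. In the Ren1, Cnn1 group Col1a1 was at 61.8, 81.6, 110 and 120 CPM and Col3a1 at 201, 160, 250 and 279 CPM, with the same order of genotypes. Inside that group Col3a1 in SP-HFD over WT-HFD was under 2-fold. The groups led by Cox4i2 and Ephx3 and by Ptn and Sfrp2 held 28 and 11 Col3a1 UMIs in SP-HFD, against 5 and 1 in WT-HFD. Dcn was not tested in mural cells: it had 0.93, 1.64, 1.93 and 24.7 CPM, and of the 34 UMIs of SP-HFD 14 lay in 1 cell and 94.1% in 5 cells.

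In endothelium 1 of 6 matrix genes was past 2-fold for the diet in WT (Fn1 lower), against 1.57% of 6244 genes, and 1 of 6 in SP-HFD over WT-HFD (Fn1 higher), against 0.323% of 6195 genes. It was 0 of 6 for the diet in SP (background 0.85% of 6235 genes) and in SP-ND over WT-ND (1.42% of 6322 genes). In podocytes 1 of 3 was past 2-fold for the diet in WT (Col1a2 higher), against 1.6% of 5796 genes. The other 3 podocyte comparisons had 0 of 3, against 0.824% (diet in SP), 1.4% (SP-ND over WT-ND) and 1.46% (SP-HFD over WT-HFD). In tubule cells 0 of 3 was past 2-fold in each comparison, against 1.42%, 1.68%, 1.09% and 0.304%. With 3 to 6 genes tested, a single gene moves these shares far, and the podocyte, endothelial and tubular matrix genes otherwise kept within 2-fold.

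Other genes of the pathway were read from 7 lists (82 genes). In mural cells the basement membrane list had 12 of 15 genes tested in each comparison, and none was past 2-fold except for the diet in SP, where Lamb1 was higher (1.11) and Lama4 lower (−1.07), both laminin chains. Its median was 0.12 for the diet in WT, beside 0.09 over all genes. Col6a1, a chain of the microfibril-forming type VI collagen, was higher in both SP libraries, at 1.19 for SP-ND over WT-ND and 1.78 for SP-HFD over WT-HFD, as mural Col1a1 and Col3a1 were. The proteoglycan, elastic fibre and matricellular list had 11 of 13 tested, with 2 higher and 1 lower for the diet in SP, 1 lower for the diet in WT and 1 lower in SP-ND over WT-ND. Beside the counts of both lists, the shares over all mural genes tested were 3.14% (diet in WT) and 4.61% (diet in SP). They were 4.64% in SP-ND over WT-ND and 0.722% in SP-HFD over WT-HFD. With so few list genes tested, 1 gene moves these shares far.

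The matricellular genes that respond to mechanical load and growth factors had large levels in mural cells. Ccn2 was at 2477, 4612, 1294 and 4073 CPM. Both HFD libraries were above both ND libraries, and the log2 ratio for the diet in SP was 1.65. Ccn1 was at 229, 377, 109 and 253 CPM, with 1.21 for the diet in SP. Adamts5, a proteoglycan-cleaving protease, was at 1482, 1284, 583 and 1384 CPM in mural cells, lowest in SP-ND. In podocytes Ccn2 was at 465, 864, 2040 and 935 CPM, 2.13 higher in SP-ND than in WT-ND and −1.13 for the diet in SP, the opposite direction to mural cells.

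In fibroblasts, for the diet in WT, the proteoglycan, elastic fibre and matricellular list had 4 of 7 tested genes higher and 0 lower, with Ogn at 4.33, Mfap4 at 4.33, Eln at 3.16 and Ccn2 at 1.06 on the log2 scale. The other 6 lists had few genes tested: 1 of 5 higher among interstitial collagens, 2 of 4 higher and 1 lower in the basement membrane list, 2 of 3 higher and 1 lower among proteases and inhibitors, 2 of 2 higher in collagen making, 1 of 1 higher in the TGF-beta list and 0 of 1 in Mgp carboxylation. The background there was 38.3%. In SP-HFD over WT-HFD the proteoglycan, elastic fibre and matricellular list had 3 of 10 tested genes higher and 4 lower, against 37.7% of all fibroblast genes tested. Mfap4 was at −4.35, Eln at −3.34 and Ogn at −2.52, while Spp1 (osteopontin) was at 5.54, from 7 UMIs in WT-HFD to 253 in SP-HFD. Spp1 had 2, 7, 452 and 253 UMIs in the 4 libraries, so both SP libraries held far more of it. In tubule cells, which make Spp1, its level was 1257, 1502, 2001 and 2475 CPM, in both diets higher in SP, and its part in the fibroblast value was not tested.

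Genes whose level ran most alike over 17 classes in 4 libraries (68 points, 13320 genes, points of 1 library sharing its depth) were sought for 4 matrix genes. For Col1a1 the highest Pearson r were with Lama2 (0.99), Col6a2 (0.99), Col6a1 (0.98) and Col3a1 (0.98). For Mgp they were with Fbn1 (0.94), Bgn (0.94), Col8a1 (0.93) and Mmp2 (0.93). For Col4a1 the first was its head-to-head partner Col4a2 (0.93), followed by Hspg2 (0.87), and for Col4a3 it was its own partner Col4a4 (0.79), followed by Rad21 (0.76). For Col4a1 and for Col4a3 the closest gene of 13320 was thus the other gene of the pair. The search was not run from Col4a2 or Col4a4.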

How the data were processed

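Per the labels, single-cell libraries were made from dissociated whole kidney with a droplet kit that counts 3′ transcript ends. The authors deposited UMI counts per gene and barcode (whole numbers, not normalized) with at least 500 UMIs per barcode, aligned to mm10. The submitters' processing notes name Cell Ranger 2.1.1 and a header of the deposited files names 6.1.2. The study describes an ambient RNA correction with SoupX, and whether the deposited counts precede or follow it is not stated in the sources used here. None was made here outside 1 alternative. Each library is its own group, 1 per condition.

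Cells with 200 to 5000 genes and under 50% mitochondrial UMIs were kept, with genes in at least 3 cells. A doublet score (simulated doublets among 50 neighbours in 30 components of 2000 variable genes) removed 0.8% per 1000 cells. Libraries were integrated by canonical correlation (50 components) and clustered at resolution 0.5 in Seurat 5.3.0 (R 4.3.3), and stromal cells again on 20 components. The matrix genes and 7 lists (92 features) were left out of these features. Clusters were named from markers of 18 cell classes at a mean log2 ratio of at least 1 with at least 3 markers detected. The cell names were rebuilt here, so values per class may differ from those of the study for that reason. UMIs were pooled per class and library as counts per 1000000 UMIs (CPM) in Python 3.11.15 (pandas 2.3.3, scipy 1.17.1). Fold changes are log2 ratios of these levels with no pseudocount, and 3 UMIs served as the limit for a gene with none. With 1 library per group no test across conditions and no p-value was made, and the scripts were tested on simulated data.

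Named genes were the 10 matrix genes and, from the lists, genes past 2-fold or partner chains, apart from some that are not reported here. The members and lists were chosen with earlier results of these data known. Alternatives changed the integration, resolution, mitochondrial limit, depth, doublet removal, mixed droplets, denominator, scaling, cell weighting, ambient subtraction, low-value filter and thinning. Promoter sequences are from RefSeq (GRCm38.p6).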

Additional observations from a re-analysis of the deposited data

Results flagged for a closer look

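Among the cases where a matrix gene had opposite diet log2 ratios (HFD over ND) in the 2 genotypes, 4 were flagged. Others, such as Col3a1 in fibroblasts and Mgp in mural cells, are given above. With 1 library in each group, each difference was not tested. For Dcn in fibroblasts the ratio was 2.23 in WT and −2.84 in SP, a difference of −5.07, and −4.83 with barcodes left out by the doublet score added back. For Col1a1 in fibroblasts it was 0.59 in WT and −0.99 in SP, a difference of −1.58, and for Col1a2 0.81 and −0.53, a difference of −1.34. With those barcodes added back the differences were −0.71 and −0.63, and the WT ratio of Col1a1 became −0.22, so that both genotypes had the same sign. For Fn1 in mural cells the ratio was 0.45 in WT and −0.69 in SP, a difference of −1.14, or −1.09 with added-back barcodes.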

How the results depend on the processing

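No paired analysis was possible because each condition had 1 library. Of 114 member ratios, 56 kept their sign in all 12 settings. Of the 20 at 2-fold or more, 15 kept their sign and 9 stayed at 2-fold or more. Adding back barcodes left out by the doublet score alone, and counting mural clusters of mostly 1 library, were chosen after seeing the data. In fibroblasts the median log2 ratio of the matrix genes for the diet in WT, 0.59, was 0.21 with median-of-ratios scaling and −0.059 with added-back barcodes. The SP-ND over WT-ND median of 0.29 became −0.45 with added-back barcodes, which also turned fibroblast Fn1 in that comparison to −0.99. Leaving out cells with 3 or more markers of another class moved the fibroblast median for the diet in SP to −1.30 and left no WT fibroblasts. In endothelium it moved the medians to −0.57 (diet in WT), −0.29 (diet in SP), −0.50 (SP-ND over WT-ND) and −0.12 (SP-HFD over WT-HFD). It turned mural Col4a1 for the diet in WT to 0.43 and mural Fn1 in SP-ND over WT-ND to −0.12. That setting kept 17 to 38 mural and 44 to 254 endothelial cells per library. Removing 2 times the doublets left no SP-ND fibroblasts, moved the endothelial medians to 0.086 (diet in WT) and −0.047 (SP-HFD over WT-HFD), and turned endothelial Fn1 to 0.55 and −0.48 in the same comparisons. The cause was not tested in any of these cases.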

Other observations

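In 2 clusters most of a matrix gene's SP-HFD UMIs lay in 1 cell. A cluster of 520 cells led by Ubd and C3 had 5, 1, 3 and 1189 Mgp UMIs in the libraries (order as above), or 3.18, 0.777, 1.72 and 2189 CPM (2067 to 2317), and 1186 of the 1189 in SP-HFD lay in 1 of its 78 cells there. Intercalated cells led by Slc26a4 held Dcn at 35.7, 9.18, 45.8 and 55.3 CPM, and in SP-HFD 56 of 93 UMIs lay in 1 cell.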
